A study of Mus musculus with 106 samples.

Results

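Single posterior mesoderm cells were compared with single cells of the earlier posterior epiblast, using 18 of the 106 cells of the study. The cells were chosen by their titles: 10 cells titled posterior mesoderm at the E/MB stage (early to mid bud, when the allantois first buds) and 8 cells titled posterior epiblast at the pre-streak stage. All 18 were wild type and of the C57BL/6 strain. Per the labels, the mesoderm cells came from the base of the allantois and carried Oct4 (Pou5f1) and Hoxb1 transcripts without Blimp1 (Prdm1), and the epiblast cells carried Oct4 and T. The study followed the mouse primordial germ cell (PGC) lineage by hybridising the amplified cDNA of each cell to an Affymetrix array, from wild-type and Blimp1 knockout embryos. Cells were picked at random from dissected fragments and then typed by these transcripts, so each group is a choice of cells by a few genes and not a sorted population. Hoxb1, Pou5f1 and Prdm1 are therefore given as a check of the choice and not as findings, and T had no probe set with 1 gene symbol and was not used here. Because no embryo or litter is given for a cell, a group amounts to 1 sample: n counts cells, the SD is the spread between cells, and no test was made.

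The epiblast is the epithelial sheet from which all tissues of the embryo proper arise. At gastrulation its posterior cells pass through the primitive streak, lose their epithelial junctions and migrate as mesoderm, under Nodal, BMP, Wnt and FGF signals. The mesoderm that leaves the most posterior streak forms the allantois, the precursor of the umbilical vessels, and lateral tissues, and PGCs are set aside among its neighbours.

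The mesoderm arrays stood apart from the rest of the series, and this is given before the results because it touches all of them. Array signal was used on a log2 scale after raising low values to a floor of 6.13, set from genes of olfactory, taste and vomeronasal receptors and hair keratin-associated proteins, and a gene was called detected above the 95th percentile of those genes in the same cell. The mesoderm cells had 11215 ± 982 detected probe sets (SD, n = 10) and the epiblast cells 11836 ± 391 (SD, n = 8). The median over the broadly detected genes, those with signal in 50% or more of all cells, was 8.65 ± 0.24 in mesoderm cells and 8.91 ± 0.09 in epiblast cells. The hybridisation controls, bacterial and phage transcripts added to each array's sample, averaged 11.23 ± 0.33 on the mesoderm arrays and 9.80 ± 0.18 on the epiblast arrays, so that even the lowest of them in mesoderm (10.77) exceeded the maximum of the remaining 96 arrays (10.75). The signal at the 5′ end of the beta-actin control minus that at its 3′ end was -1.57 ± 0.46 in mesoderm cells, -3.57 ± 0.87 in epiblast cells and -3.00 ± 0.75 in the other 88 cells. For Gapdh it was -0.09 ± 0.07 in mesoderm cells and -2.36 ± 2.33 in epiblast cells, where the cells fell into 2 sets, replicates 3 to 6 at -5.50 to -3.93 and the other 4 cells at -0.45 to -0.09. Values without epiblast replicates 3 to 6, a comparison added after the data were seen, are given below wherever they end a call or move a named value by more than 1.5 times. Sex differed as well: Xist, transcribed from the inactive X of female cells, was detected in 0 of 10 mesoderm cells and 8 of 8 epiblast cells, and a Y-linked gene in 9 of 10 mesoderm cells and 0 of 8 epiblast cells. Stage, cell type, sex and the set of arrays therefore cannot be told apart in this comparison.

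**Figure D1:**
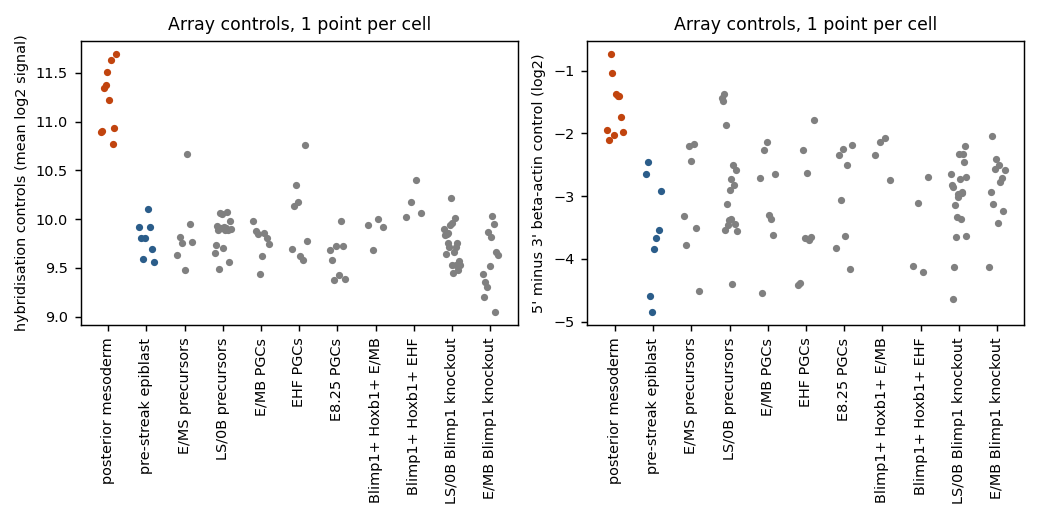
Array controls of all 106 cells by group, 1 point per cell: mean log2 signal of the hybridisation controls (left) and 5′ minus 3′ log2 signal of the beta-actin control (right). Every mesoderm array lies above all other arrays for the hybridisation controls, and the mesoderm mean of the beta-actin difference is -1.57, against -3.57 in epiblast cells.

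Of 18193 genes, 522 (2.87%) had a mean signal at least 1 log2 unit higher in mesoderm cells and 1454 (7.99%) at least 1 unit lower, the size used below for every call. Among the broadly detected genes the shares were 5.64% higher and 16.6% lower. All 10 mesoderm cells lay above all 8 epiblast cells for 71 genes (0.39%) and below them for 214 genes (1.18%). Without epiblast replicates 3 to 6, 697 genes were higher and 1473 lower, and 122 and 329 genes did not overlap, upward and downward. The median difference was 0 over all genes, many of which were at the floor in both groups, and -0.19 over the 7250 broadly detected genes. Of the called genes, 26.4% were higher in mesoderm, a share that became 43.1% after centring each array on broadly detected genes, 44.8% after scaling to the spiked lys transcripts and 41.3% after quantile normalisation, with the median of the broadly detected genes at 0.04, 0.07 and 0.00. With the mean over each gene's probe sets, undetected ones included, 41 of the 154 called genes followed individually were under 1 unit. The split between higher and lower calls thus depended on the scaling, and differences are read against -0.19 for broadly detected genes. For a gene detected in no cell of 1 group a bound is given, the mean signal of the other group over the lowest signal that counted as detected. The mean in this bound is taken without the floor, while calls use floored signal. Bounds under 1-fold are not given, so such a gene can be called higher or lower with no bound on its fold. Detection in 0 of 10 cells allows a share of up to 30.8%, and in 0 of 8 cells of up to 36.9% (exact 95% binomial interval, counting error only).

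Marker genes separated the groups as the labels do. Mesp1, the transcription factor that marks cells as they leave the streak as mesoderm, had a lowest, median and highest signal of 11.37, 11.94 and 12.43 in the 10 mesoderm cells, against 6.27, 6.40 and 7.64 in the 8 epiblast cells. The groups did not overlap, the difference of 5.40 was the largest positive one of any gene found in 75% or more of the mesoderm cells, and the gene was detected in 1 epiblast cell. Of the genes used to choose cells, Hoxb1 averaged 10.85 ± 0.74 in mesoderm cells and 6.35 ± 0.60 in epiblast cells, Pou5f1 9.85 ± 0.91 in mesoderm cells and 11.56 ± 0.36 in epiblast cells, and Prdm1 was detected in 0 of 10 mesoderm cells and 1 of 8 epiblast cells. The epiblast markers stood the other way: Otx2, Pou3f1, Fgf5 and Utf1 were detected in 0 of 10 mesoderm cells and in 8, 7, 6 and 8 of the 8 epiblast cells, and Nanog in 2 of 10 mesoderm cells and 8 of 8 epiblast cells.

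Transcription factors of the streak and of nascent mesoderm were mostly higher. Of 16 measured mesoderm regulators 9 were higher in mesoderm cells (56.25%) and 1 was lower (6.25%), with a median difference of 1.69. The shares among the broadly detected genes were 5.64% and 16.6%. Cdx2, a caudal-type homeobox factor of the posterior embryo that activates Hox genes, had lowest, median and highest signals of 8.47, 9.83 and 10.92 in mesoderm cells and was detected in no epiblast cell, at least 6.96-fold higher. Cdx1 of the same family was detected in 8 of 10 mesoderm cells and 0 of 8 epiblast cells (at least 2.44-fold higher) and Cdx4 in 5 of 10 mesoderm cells and 0 of 8 epiblast cells. Mixl1, a homeobox factor of the streak, averaged 9.64 ± 1.23 in mesoderm cells and 7.11 ± 1.15 in epiblast cells, and Evx1, which is expressed in the posterior streak in response to BMP and Wnt signals, 11.02 ± 0.53 in mesoderm cells and 8.58 ± 1.90 in epiblast cells. Their ranges overlapped those of the epiblast cells, 6 of which already had Evx1 above the detection limit. Sp5, a Wnt target, differed by 2.17.

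The single member lower in mesoderm was Eomes, the T-box factor that the epiblast needs for its transition to mesoderm and endoderm. Its lowest, median and highest signals were 6.13, 6.13 and 8.88 in mesoderm cells, against 7.41, 11.37 and 12.26 in epiblast cells. The difference was -4.60, with 1 overlapping pair of cells: mesoderm replicate 7, the single mesoderm cell with Eomes above the detection limit, lay above epiblast replicate 4. A second Eomes probe set differed by -3.37. The early streak genes Gsc, Lefty2 and Wnt3 were above the detection limit in no mesoderm cell and Fgf8 in 4. These counts cover mesoderm cells only and are not differences from the epiblast cells. Fgf8 is compared with the FGF genes below.

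Msgn1, a factor of unsegmented paraxial mesoderm, was detected in 8 of 10 mesoderm cells and 0 of 8 epiblast cells, at least 1.86-fold higher. Tbx6, which directs cells to mesoderm rather than neural tissue, averaged 8.31 ± 1.34 in mesoderm cells and 6.56 ± 0.89 in epiblast cells. Dll1, the Notch ligand of the streak and presomitic mesoderm, had lowest, median and highest signals of 6.13, 10.13 and 12.02 in mesoderm cells and was detected in 9 of them and in no epiblast cell, at least 5.27-fold higher. Mesp2, a factor of somite formation, was detected in 1 mesoderm cell. Of 11 genes of paraxial and cardiac mesoderm 0 were higher and 1 lower, the median was 0.03, and Foxc2, Nkx2-5, Mef2c, Tcf15, Tbx5, Pax3 and Myf5 were detected in 0 cells of either group. Meox1 was detected in 7 of 10 mesoderm cells and 1 of 8 epiblast cells at a difference of 0.36, and the lower gene, Myl7, a myosin light chain, in 2 of 10 mesoderm cells and 6 of 8 epiblast cells.

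Factors of the allantois and the lateral plate were among the largest differences. Of 15 measured genes 8 were higher (53.3%, against 5.64% of the broadly detected genes) and 0 lower. The median was 1.39, and 4 were undetected in both groups. Hand1, a basic helix-loop-helix factor of extraembryonic and lateral mesoderm, had lowest, median and highest signals of 6.64, 10.75 and 11.93 in mesoderm cells, against 6.13, 6.13 and 8.05 in epiblast cells. Its difference was 4.13, and 1 mesoderm cell, replicate 3, lay near the floor and below the single epiblast cell with signal. Bmp4, the ligand that allantois and extraembryonic mesoderm supply, had values of 6.13, 11.33 and 12.14 in mesoderm cells, against 6.13, 6.13 and 7.70 in epiblast cells, a difference of 4.03 with mesoderm replicate 7 at the floor. Isl1, a LIM homeobox factor, was above the detection limit in all 10 mesoderm cells, with 6.85, 9.72 and 10.74, and in no epiblast cell, at least 4.71-fold higher. Foxf1, needed for the allantois and its vessels, was at least 2.26-fold higher and detected in 8 mesoderm cells, and Gata4 at least 1.05-fold higher and detected in 6. Tbx3 differed by 1.73, Msx1 by 2.89 and Msx2 by 2.98, each with overlapping cells. With the mean over probe sets 6 genes of the list were higher, and Tbx3 was at 0.48 and Gata4 at 0.74. The allantois factors Tbx4, Pitx1, Tbx2 and Prrx1 were above the detection limit in 0 of the 18 cells.

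Of 31 measured Hox genes, which pattern the body axis, 14 were undetected in both groups, 4 were higher, 0 were lower, and the median was 0.00. The share higher was 12.9%, against 5.64% of the broadly detected genes and 2.87% of all genes. Of the 4, Hoxb1 was used to choose the cells and is not a finding, and the other higher members were Hoxd9, Hoxb2 and Hoxa2. Hoxd9, from the 5′ part of its cluster, had lowest, median and highest signals of 6.13, 9.65 and 11.65 in mesoderm cells and was at the floor in every epiblast cell, at least 5.36-fold higher. Hoxb2 was detected in 8 of 10 mesoderm cells and 0 of 8 epiblast cells (at least 2.52-fold higher) and Hoxa2 in 5 of 10 mesoderm cells and 0 of 8 epiblast cells. Next to Hoxd9, Hoxd8 was detected in 3 mesoderm cells, Hoxd10 in 1, and Hoxd3 and Hoxd11 in none.

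**Figure D2:**
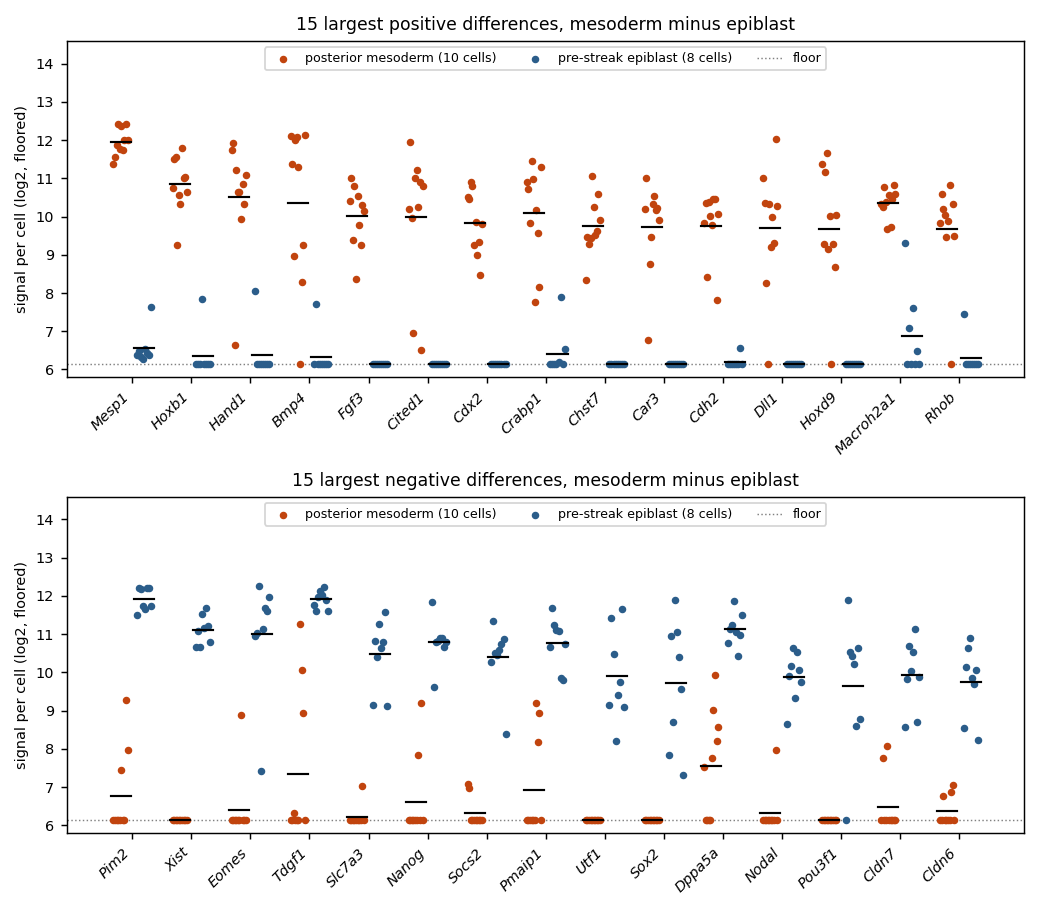
Floored log2 signal per cell of the 15 genes with the largest positive (top) and negative (bottom) differences, for genes found in 75% or more of the cells in which they were higher; orange, posterior mesoderm (10 cells), left of blue, pre-streak epiblast (8 cells), black bars, means, dotted line, the floor of 6.13. Most points of the lower group lie at the floor, as for Fgf3 in epiblast cells and Sox2 in mesoderm cells.

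The other genes of the 15 largest positive differences were of varied function. Fgf3, an FGF ligand of the streak and tail, had lowest, median and highest signals of 8.37, 10.23 and 11.01 in mesoderm cells and was at the floor in all epiblast cells, at least 7.79-fold higher. Cited1, a transcriptional coregulator, was at least 7.65-fold higher, Chst7, a sulfotransferase that modifies chondroitin, at least 6.53-fold, and Car3, a carbonic anhydrase, at least 6.48-fold. Crabp1, a cytoplasmic binding protein of retinoic acid, averaged 10.09 ± 1.28 in mesoderm cells and 6.41 ± 0.61 in epiblast cells. Macroh2a1, a histone variant found on inactive chromatin, averaged 10.36 ± 0.39 in mesoderm cells and 6.88 ± 1.12 in epiblast cells, and was detected in 10 of 10 mesoderm cells and 2 of 8 epiblast cells. Rhob, a small GTPase that regulates actin and membrane traffic, averaged 9.68 ± 1.32 in mesoderm cells and 6.30 ± 0.47 in epiblast cells. Of these 15 genes Cited1 and Chst7 lie on the X chromosome. Second probe sets gave smaller differences in the same direction, for example 2.72 for Hand1, 1.96 for Car3, 1.41 for Cdh2 and 1.16 for Cdx2, while 2 further Car3 probe sets had 0.01 and 0.19 with detection in 0 and 1 mesoderm cells.

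Mesenchymal genes, which cells of the streak switch on as they leave the epithelium, were mostly higher. Of 12 mesenchymal genes 9 were higher in mesoderm (75%, against 5.64% of the broadly detected genes) and 0 lower, with a median of 1.56. Cdh2 (N-cadherin) had lowest, median and highest signals of 7.83, 10.04 and 10.47 in mesoderm cells and was above the detection limit in no epiblast cell, at least 6.58-fold higher. Vim, the intermediate filament vimentin, had values of 10.61, 11.83 and 12.28 in mesoderm cells, against 7.55, 8.45 and 9.60 in epiblast cells, and Fn1, the matrix protein fibronectin on which mesoderm migrates, 11.12, 11.98 and 12.56 in mesoderm cells, against 7.64, 8.90 and 10.72 in epiblast cells. Neither gene's groups overlapped, although both genes were detected in all 18 cells, so these were differences of level. Snai1, the zinc-finger repressor of E-cadherin that drives the transition in the mouse streak, had values of 6.66, 9.94 and 10.56 in mesoderm cells, against 6.13, 6.26 and 8.31 in epiblast cells, a difference of 2.86 with overlapping ranges. Pdgfra, a growth factor receptor of early mesoderm, differed by 2.66, Mmp2, a matrix protease, by 1.26, and Acta2, smooth muscle actin, was at least 1.99-fold higher. Twist1 and Cdh11 were each detected in 5 mesoderm cells and in no epiblast cell. The related repressors Snai2, Zeb1 and Zeb2 were each detected in 1 mesoderm cell and in no epiblast cell. With the mean over probe sets 7 genes of the list were higher, and Acta2 was at 0.56 and Cdh11 at 0.75.

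Epithelial genes split. Of 15, 7 were lower in mesoderm (46.7%) and 3 were higher (20%), with a median of -0.78. Among the broadly detected genes 16.6% were lower and 5.64% higher. Cldn7 and Cldn6, claudins of tight junctions, differed by -3.43 and -3.40 without overlap: Cldn7 had lowest, median and highest signals of 6.13, 6.13 and 8.07 in mesoderm cells, against 8.58, 9.95 and 11.15 in epiblast cells, and Cldn6 6.13, 6.13 and 7.04 in mesoderm cells, against 8.22, 9.97 and 10.91 in epiblast cells. Epcam, an adhesion molecule of epithelia, had 6.13, 8.65 and 9.87 in mesoderm cells, against 10.16, 11.10 and 11.63 in epiblast cells, also without overlap, at a difference of -2.50. Cdh1 (E-cadherin) had 6.13, 8.92 and 10.79 in mesoderm cells, against 10.20, 11.26 and 11.77 in epiblast cells, a difference of -2.80. E-cadherin transcripts were thus lower but still detected in 7 of 10 mesoderm cells, together with N-cadherin in the same cells, and 1 of these cells lay within the epiblast range. Esrp1, a splicing factor of epithelial isoforms, differed by -2.14 and Spint1, a protease inhibitor of epithelia, by -1.98. Grhl2, an epithelial transcription factor, was detected in 0 of 10 mesoderm cells and 4 of 8 epiblast cells. Its difference was -0.99 without epiblast replicates 3 to 6 and -0.28 with the mean over probe sets.

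The 3 epithelial genes higher in mesoderm were of desmosomes and keratin filaments. Dsp (desmoplakin), which ties keratin to desmosomes, averaged 10.36 ± 0.64 in mesoderm cells and 7.54 ± 1.56 in epiblast cells. Krt8, a keratin of simple epithelia, averaged 9.64 ± 1.46 in mesoderm cells and 7.98 ± 1.40 in epiblast cells, and Pkp3, a plakophilin of desmosomes, 8.03 ± 0.48 in mesoderm cells and 6.98 ± 0.34 in epiblast cells. Each was detected in all 10 mesoderm cells, with ranges that overlapped those of the epiblast cells. Pkp3 was at 0.86 without epiblast replicates 3 to 6 and at 0.54 with the mean over probe sets. Krt18, the partner of Krt8, was detected in 6 of 10 mesoderm cells and 8 of 8 epiblast cells.

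Snail-family proteins repress through E-box sequences, and the promoters of the 3 epithelial genes whose groups did not overlap are shown for this reason. The windows hold the 250 bases before the start of transcription on the gene's strand in RefSeq's GRCm38.p6 annotation, 5′ to 3′, and capitals mark each match to CAGGTG or its reverse complement CACCTG, without overlap with other motifs searched. The Epcam window is chr17:87635729-87635978 on the plus strand, with matches starting at -187 and -19 from the start site. The Cldn6 window is chr17:23679115-23679364 on the plus strand, with a match at -93. For Cldn7 the window of the second of its start sites is shown, chr11:69965171-69965420 on the plus strand, with matches at -97 and -57, while the window of its other start site held none.
Epcam: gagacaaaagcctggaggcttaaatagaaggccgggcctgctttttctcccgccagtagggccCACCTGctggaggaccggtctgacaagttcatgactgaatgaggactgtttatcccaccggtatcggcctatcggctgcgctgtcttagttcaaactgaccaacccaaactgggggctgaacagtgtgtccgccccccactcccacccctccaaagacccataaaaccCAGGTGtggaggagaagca
Cldn6: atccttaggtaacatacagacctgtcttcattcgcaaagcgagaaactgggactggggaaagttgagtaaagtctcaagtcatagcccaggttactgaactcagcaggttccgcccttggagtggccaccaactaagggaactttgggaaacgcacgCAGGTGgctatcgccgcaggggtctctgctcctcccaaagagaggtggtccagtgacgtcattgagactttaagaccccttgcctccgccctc
Cldn7: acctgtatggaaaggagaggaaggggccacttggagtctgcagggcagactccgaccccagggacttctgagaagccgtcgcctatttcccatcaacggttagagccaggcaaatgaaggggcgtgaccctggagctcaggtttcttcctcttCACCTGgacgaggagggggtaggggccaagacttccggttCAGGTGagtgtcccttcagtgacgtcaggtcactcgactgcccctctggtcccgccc
Of the 10 epithelial genes with a window, 8 held the motif in at least 1 window (80%), among them Krt8, which was higher in mesoderm, and 3 of the 4 that were lower by at least 1 unit held it. Over all genes with a window the share was 19.4% (5252 of 27025), and over all windows of this length 17.2% (5657 of 32851). A match is a description of the sequence and was not tested as a binding site. The promoters of Cdh1 and Esrp1 are not shown.

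The genes of the matrix and integrin list moved little as a group. The list does not hold the matrix protein Fn1 or the matrix protease Mmp2, which were higher and were counted with the mesenchymal genes above. Of 28 genes 3 were higher (10.7%) and 4 lower (14.3%), with a median of 0.00. The shares among the broadly detected genes were 5.64% and 16.6%, so the lower share was near theirs. The 4 lower calls became 2 after centring, lys scaling or quantile normalisation. With the mean over a gene's probe sets, 1 gene was higher and 0 were lower. The higher genes were Lamb1, a laminin chain of basement membrane (1.19, or 0.73 without epiblast replicate 1), Fbln1, a fibulin (1.21), and Col9a1, a collagen chain (at least 1.18-fold, detected in 6 mesoderm cells). The lower ones were matrix receptors and a laminin: the laminin receptor subunits Itga3, at least 2.27-fold lower and above the detection limit in no mesoderm cell, and Itga6 (-1.74), the laminin chain Lama5 (-1.19), and the vitronectin and fibronectin receptor subunit Itgav (-1.16). Itga6 was at -1.02 without epiblast replicates 3 to 6. Itga3 and Itgav did not overlap between groups.

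The primed epiblast genes had the lowest median of the 32 lists. Of 12 genes 10 were lower (83.3%, against 16.6% of the broadly detected genes) and 0 higher, with a median of -2.79. The groups did not overlap for 6 of them, while over all genes 1.18% lay wholly lower in mesoderm. The lists were chosen with earlier results of these data known, so the rank and these counts partly reflect the choice of genes. Pim2, a serine/threonine kinase gene on the X chromosome, had lowest, median and highest signals of 6.13, 6.13 and 9.27 in mesoderm cells, against 11.51, 11.97 and 12.21 in epiblast cells, a difference of -5.17. Slc7a3, a transporter of cationic amino acids that is also X-linked, averaged 6.22 ± 0.28 in mesoderm cells and 10.47 ± 0.90 in epiblast cells. The transcription factors Otx2, Zic5 and Pou3f1 were at the floor in all mesoderm cells, at least 3.82-fold, 4.27-fold and 3.8-fold lower, and so was Fgf5, an FGF ligand that marks the primed epiblast (at least 3.89-fold lower). Sox4 was lower but retained, at 8.27 ± 1.54 in mesoderm cells and 11.002 ± 0.32 in epiblast cells. With the mean over probe sets Sox4 was at a difference of -0.76, and 8 genes of the list were lower. The 2 genes that missed the size were Zic2, detected in 0 of 10 mesoderm cells and 4 of 8 epiblast cells, and Lefty1, detected in 0 of 10 mesoderm cells and 1 of 8 epiblast cells.

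The pluripotency network did not move as one. Of 21 genes 7 were lower (33.3%), 1 was higher (4.76%) and the median was 0.00, since 5 were undetected in both groups. Among the broadly detected genes 16.6% were lower and 5.64% higher. Nanog, a homeobox factor of pluripotent cells, had lowest, median and highest signals of 6.13, 6.13 and 9.19 in mesoderm cells, against 9.62, 10.81 and 11.83 in epiblast cells, without overlap and at a difference of -4.18. Sox2, the partner of Oct4, was at the floor in all 10 mesoderm cells and had 7.32, 9.98 and 11.89 in epiblast cells, at least 6.76-fold lower. Utf1, a chromatin-bound factor of pluripotent cells, was likewise at the floor in mesoderm, at least 7.68-fold lower, and Foxd3 was at least 1.65-fold lower. Dppa5a, a pluripotency-associated gene of the early embryo, had 6.13, 7.64 and 9.94 in mesoderm cells, against 10.42, 11.10 and 11.88 in epiblast cells, so that 6 mesoderm cells kept it above the detection limit, all below the lowest epiblast cell. Tdgf1 is described with the Nodal genes. Pou5f1, also a lower member, was used for the choice of cells and is not a finding. Other members were abundant in both groups. Sall4, a zinc-finger factor, averaged 12.02 ± 0.40 in mesoderm cells and 11.66 ± 0.33 in epiblast cells, and Lin28a, an RNA-binding protein that blocks let-7 maturation, 11.004 ± 0.46 in mesoderm cells and 10.71 ± 0.24 in epiblast cells. Klf5 was the higher member and was detected in 5 of 10 mesoderm cells and 0 of 8 epiblast cells. With the mean over probe sets Klf5 was at 0.54.

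Socs2, a suppressor of cytokine signalling, and Pmaip1 (Noxa), a pro-apoptotic protein of the Bcl2 family, were also among the 15 largest negative differences. Socs2 had lowest, median and highest signals of 6.13, 6.13 and 7.08 in mesoderm cells, against 8.40, 10.55 and 11.34 in epiblast cells. The values of Pmaip1 were 6.13, 6.13 and 9.20 in mesoderm cells, against 9.79, 10.92 and 11.67 in epiblast cells. Both sets of values were apart without overlap, at differences of -4.09 and -3.85, although a second detected probe set of Socs2 gave -2.15. Pim2, Slc7a3 and Xist (at least 17.7-fold lower) were the X-linked genes among these 15.

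Of 11 germ cell genes 2 were higher and 2 lower (18.2% each), with a median of -0.05 that became 0.13 after lys scaling. The broadly detected genes had 5.64% higher and 16.6% lower. Ifitm1, of the fragilis family, averaged 11.56 ± 0.55 in mesoderm cells and 9.64 ± 1.17 in epiblast cells, and Alpl, the alkaline phosphatase long used to stain germ cells, 9.06 ± 1.13 in mesoderm cells and 7.06 ± 0.53 in epiblast cells. Ifitm3 itself, which the study's screen also used, differed by -0.05. The lower genes were Ddx4, a helicase of germ cells, in 4 of 10 mesoderm cells and 6 of 8 epiblast cells, and Dppa3 (stella), in 0 of 10 mesoderm cells and 4 of 8 epiblast cells. The specification factors Prdm14 and Tfap2c were detected in 1 and 3 mesoderm cells.

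Among the signalling pathways, the ligand and co-receptor of Nodal were lower while most of its other components were within 1 unit. Nodal, the TGF-beta family ligand that maintains the epiblast and patterns the streak, had lowest, median and highest signals of 6.13, 6.13 and 7.97 in mesoderm cells, against 8.66, 9.98 and 10.63 in epiblast cells, a difference of -3.56. Tdgf1 (Cripto), its co-receptor, had 6.13, 6.13 and 11.26 in mesoderm cells, against 11.61, 11.92 and 12.25 in epiblast cells, a difference of -4.57. Neither overlapped, and the mesoderm cells with Tdgf1 were replicates 7, 8 and 9, the highest of them at 11.26. Of the 14 genes 3 were lower (21.4%) and 1 higher (7.14%), with a median of -0.29, against 16.6% lower and 5.64% higher among the broadly detected genes. The third lower gene was Smad4, the shared Smad (-1.01, the call of size being lost under each of the 3 scalings and with the mean over probe sets), and the higher one Smad3 (1.36, or 0.47 with that mean), while the transcription factor Foxh1 (-0.29) and the receptors Acvr1b (0.57) and Acvr2b (0.28) were detected in nearly every cell of both groups.

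Transcriptional targets of BMP were mostly higher. Of 10 response genes 6 were higher (60%, against 5.64% of the broadly detected genes) and 0 lower, with a median of 1.61. Id1, an inhibitor of helix-loop-helix factors and a direct target, had lowest, median and highest signals of 10.99, 11.90 and 12.39 in mesoderm cells, against 6.66, 8.95 and 11.35 in epiblast cells. Id3 averaged 11.44 ± 0.52 in mesoderm cells and 9.97 ± 1.18 in epiblast cells, and the pseudoreceptor Bambi 9.74 ± 1.50 in mesoderm cells and 7.69 ± 1.31 in epiblast cells. Smad6, an inhibitory Smad, was detected in 6 of 10 mesoderm cells and 0 of 8 epiblast cells, and Msx1 and Msx2, given above, also belong to the list. Each of the 6 had overlapping ranges. Id2 was detected in 4 mesoderm cells and no epiblast cell, and Smad7, Id4 and Smad9 differed by 0.16, 0.00 and -0.02.

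Wnt genes differed in both directions. Of 24, 8 were higher (33.3%) and 5 lower (20.8%), with a median of 0.24, against 5.64% higher and 16.6% lower among the broadly detected genes. Among ligands and secreted regulators, Rspo3, a Wnt agonist, averaged 9.30 ± 1.28 in mesoderm cells and 6.31 ± 0.51 in epiblast cells, and Wnt5b, a ligand of non-canonical signalling, 10.25 ± 0.43 in mesoderm cells and 7.80 ± 1.33 in epiblast cells. Wnt5a was at least 1.62-fold, Wnt3a at least 1.6-fold and the antagonist Dkk1 at least 2.03-fold higher. Among targets and effectors, Lef1 differed by 1.60 and Axin2 by 1.27, beside Sp5. The lower genes were the receptors Fzd2 (-2.56), Fzd7 (-2.22) and Lrp6 (-1.20), the repressor Tcf7l1, which averaged 8.08 ± 0.54 in mesoderm cells and 10.15 ± 0.66 in epiblast cells, and Wnt8a, above the detection limit in 0 of 10 mesoderm cells and 4 of 8 epiblast cells. Wnt8a was at -0.60 and Lrp6 at -1.85 without epiblast replicates 3 to 6. With the mean over probe sets 6 genes of the list were higher and 4 lower, and Wnt5a was at 0.58, Axin2 at 0.63 and Lrp6 at -0.38.

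In the FGF pathway the ligands differed one by one: Fgf3 was detected in 10 of 10 mesoderm cells and 0 of 8 epiblast cells, Fgf5 in 0 of 10 mesoderm cells and 6 of 8 epiblast cells, Fgf4 in all 18 cells with a difference of 0.47, and Fgf8 in 4 of 10 mesoderm cells and 5 of 8 epiblast cells. Of 20 genes 3 were higher (15%) and 4 lower (20%), with a median of 0.00 that became 0.27 after lys scaling. The broadly detected genes had 5.64% higher and 16.6% lower. After centring or quantile normalisation 2 were lower, and after lys scaling 4 were higher and 3 lower. The receptor Fgfr1 differed by -0.04. The feedback inhibitors of ERK signalling went both ways, with Dusp4 at 2.17 and Spred2 at 1.03 (0.63 without epiblast replicate 2, and -0.020 with the mean over its probe sets), and Dusp6 at -1.35, Spry2 at -1.14 and Spry1 at -1.04. Spry2 was at -0.32 and Spry1 at -0.44 without epiblast replicates 3 to 6, which left 4 genes of the list higher and 2 lower.

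In the Notch pathway 3 of 16 genes were higher (18.75%) and 1 lower (6.25%), with a median of 0.00. The shares among the broadly detected genes were 5.64% and 16.6%. With the ligand Dll1, the receptor Notch1 averaged 9.12 ± 1.19 in mesoderm cells and 6.26 ± 0.36 in epiblast cells, and the ligand-like inhibitor Dll3 8.55 ± 1.95 in mesoderm cells and 6.58 ± 1.01 in epiblast cells. The receptor Notch3 differed by -1.65, or by -0.92 with the mean over probe sets. The target genes Hes7, Hes1, Hes5 and Hey1 differed by 0.10, -0.22, 0.01 and 0.60. Of 14 retinoic acid genes, Crabp1 was the single one past the size. The synthesising enzyme Aldh1a2 was detected in 3 mesoderm cells and the degrading enzyme Cyp26a1 in 2, and both were in no epiblast cell.

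Guidance and migration signals also differed in both directions, with 5 of 17 genes higher (29.4%) and 3 lower (17.6%) and a median of 0.20. Among the broadly detected genes the shares were 5.64% higher and 16.6% lower, so the lower share was near theirs. Aplnr, the receptor for apelin on nascent mesoderm, had lowest, median and highest signals of 6.13, 10.09 and 11.64 in mesoderm cells, against 6.13, 6.13 and 9.18 in epiblast cells, while its ligand Apln averaged 6.55 ± 1.24 in mesoderm cells and 8.54 ± 1.63 in epiblast cells. A second ligand, Apela, differed by -0.10. Efna1, an ephrin, averaged 9.67 ± 1.06 in mesoderm cells and 6.38 ± 0.56 in epiblast cells, and its receptor Epha2 was at the floor in all mesoderm cells, at least 2.56-fold lower. Ephb4, a receptor of vascular mesoderm, was at least 1.4-fold higher, and its ligand Efnb2 averaged 6.92 ± 1.07 in mesoderm cells and 8.84 ± 1.60 in epiblast cells. Without epiblast replicates 3 to 6, Efnb2 was at -0.87, Efna3 at 0.31 and Ephb3 at 0.68, which left 3 genes higher and 2 lower. With the mean over probe sets Efnb2 was also at -0.87, and Efna3 was at 0.70. The chemokine Cxcl12 was detected in all 18 cells and its receptor Cxcr4 in 0.

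**Figure D3:**
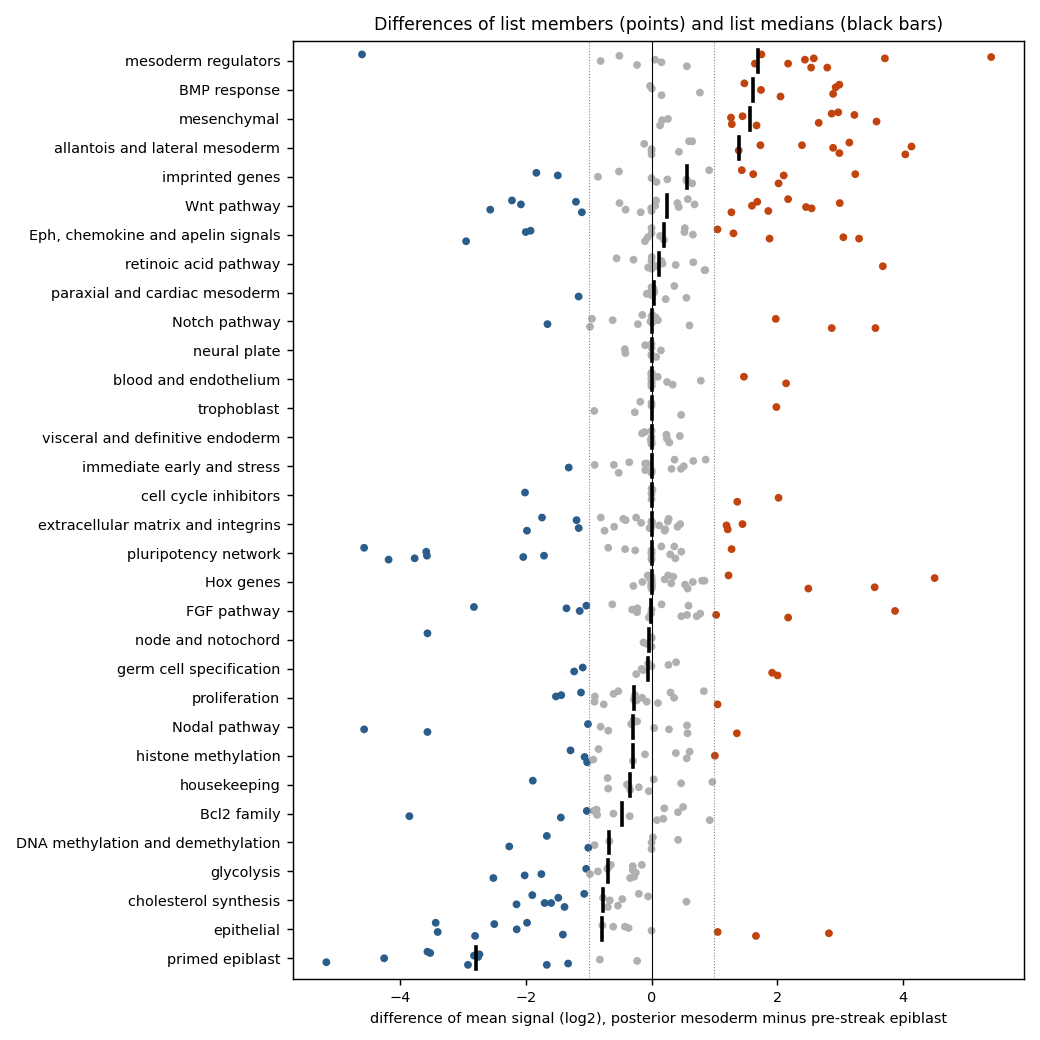
Difference of mean log2 signal, posterior mesoderm minus pre-streak epiblast, of each measured gene of the 32 lists (points) with the list medians (black bars); orange, higher by at least 1 unit, blue, lower by at least 1 unit, grey, between. The medians run from -2.79 for the primed epiblast to 1.69 for the mesoderm regulators.

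Of 9 genes of DNA methylation 3 were lower (33.3%) and 0 higher, with a median of -0.67. Among the broadly detected genes 16.6% were lower and 5.64% higher. Under each of the 3 scalings 2 were lower, and with the mean over probe sets 1, Tet1 being at -0.74 and Uhrf1 at -0.74. Dnmt3b, the de novo methyltransferase of the epiblast, had lowest, median and highest signals of 10.45, 10.86 and 11.94 in mesoderm cells, against 12.43, 12.70 and 12.82 in epiblast cells, without overlap. Tet1, which oxidises methylcytosine, averaged 7.11 ± 1.33 in mesoderm cells and 9.38 ± 1.09 in epiblast cells, Uhrf1, a cofactor of maintenance methylation, differed by -1.01, and Dnmt1, the maintenance enzyme, by 0.42. Of 11 histone methylation genes 3 were lower (27.3%) and 1 higher (9.09%), against 16.6% and 5.64% of the broadly detected genes. Kdm4c differed by -1.29 and the Polycomb subunits Suz12 and Eed by -1.06 and -1.02, although the mean over probe sets gave 0.12 for Suz12 and -0.51 for Eed. The higher gene was Kdm6b, a demethylase (1.01, or 0.54 with the mean over probe sets), and after each of the 3 scalings 1 gene of the list was lower. Without epiblast replicates 3 to 6 1 gene was lower as well, with Kdm4c at -0.63, Suz12 at -0.94 and Kdm6b at 1.54.

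Proliferation genes had a median of -0.27 over 19 genes, or 0.02 after lys scaling, and 3 were lower (15.8%) and 1 higher (5.26%), shares near those of the broadly detected genes. Under each of the 3 scalings 2 were lower and 2 higher. Mki67 differed by -1.52, Bub1 by -1.44 (-0.68 with the mean over probe sets) and Cdc6 by -1.12, and Aurkb, a mitotic kinase, by 1.05. Of the cyclin-dependent kinase inhibitors, Cdkn1c averaged 8.87 ± 1.49 in mesoderm cells and 6.85 ± 1.05 in epiblast cells, Cdkn1a 8.36 ± 1.90 in mesoderm cells and 6.99 ± 1.39 in epiblast cells, and Cdkn1b 6.48 ± 0.89 in mesoderm cells and 8.50 ± 1.61 in epiblast cells. Of 14 Bcl2 family genes 3 were lower (21.4%, against 16.6% of the broadly detected genes) and 0 higher: Pmaip1, the pro-apoptotic Bcl2l11 (-1.44) and the anti-apoptotic Mcl1 (-1.03). Under each of the 3 scalings 1 gene of the list was higher and 2 lower, and with the mean over probe sets 1 was higher and 1 lower, Bcl2l11 being at -0.22. Bcl2l11 was at -0.59, Cdkn1b at a difference of -1.03 and Cdkn1a at 0.94 without epiblast replicates 3 to 6.

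Imprinted genes had a median of 0.56 over 16, with 5 higher (31.25%) and 2 lower (12.5%), or 3 higher with the mean over probe sets. The shares among the broadly detected genes were 5.64% and 16.6%. Phlda2, a maternally expressed gene that limits placental growth, had lowest, median and highest signals of 12.78, 13.13 and 13.33 in mesoderm cells, against 6.13, 10.29 and 11.67 in epiblast cells, a difference of 3.24 without overlap. Igf2, a paternally expressed growth factor, averaged 8.63 ± 1.96 in mesoderm cells and 6.53 ± 0.73 in epiblast cells. Grb10, an adaptor that restrains growth, differed by 1.43 (0.99 without epiblast replicates 3 to 6), and Dlk1, a membrane protein related to Notch ligands, was at least 1.14-fold higher and detected in 5 mesoderm cells. Cdkn1c, given above, is also imprinted. The lower genes were Nnat (-1.83) and Snrpn (-1.49).

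Of 15 cholesterol synthesis genes 7 were lower (46.7%, against 16.6% of the broadly detected genes) and 0 higher, with a median of -0.77. The lower genes were led by Idi1 (-2.15), Insig1 (-1.90), a sensor of sterol levels, Sqle (-1.70) and Fdft1 (-1.60, or -0.64 with the mean over its probe sets). Hmgcs1 differed by -0.47 and Mvk by 0.55. Without epiblast replicates 3 to 6, 5 of the list were lower, with Insig1 at -0.88 and Cyp51 at -0.31. Of 15 glycolysis genes 4 were lower (26.7%, against 16.6% of the broadly detected genes) and 0 higher. The median was -0.69, or -0.43 after centring and -0.40 after lys scaling. The means of all 15 were lower in mesoderm cells, but the median over the broadly detected genes was also lower, at -0.19. The smallest difference of the 15, -0.15 for Ldha, did not reach that median. With the mean over probe sets 2 were lower by at least 1 unit. Slc16a3, a lactate exporter, had lowest, median and highest signals of 6.13, 8.70 and 9.84 in mesoderm cells, against 10.08, 10.96 and 11.72 in epiblast cells, without overlap, and Pdk1, a brake on pyruvate entry into mitochondria, and Slc2a3, a glucose transporter, differed by -2.02 and -1.75. Hk1, a hexokinase, was above the detection limit in 0 of 10 mesoderm cells and 4 of 8 epiblast cells. With the mean over probe sets Hk1 was at -0.52 and Slc2a3 at -0.90. Among the other enzymes, Hk2, Pfkp, Pgk1 and Tpi1 differed by -0.98, -0.85, -0.69 and -0.65, and Aldoa, Pgam1, Pkm and Ldha by -0.34, -0.28, -0.25 and -0.15. Of 11 housekeeping genes 1, the transferrin receptor Tfrc (-1.89, or -0.67 with the mean over probe sets), was lower, and the median was -0.34. Of 17 immediate early and stress genes 1 was lower, Hspa1b (-1.32, or -0.75 without epiblast replicate 6), and 0 were higher. Hspa1b was at -0.32 without epiblast replicates 3 to 6, and 3 genes of that list were higher.

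The X chromosome is given apart because the mesoderm cells had no Xist and the epiblast cells all had it. Of 214 broadly detected X-linked genes 60 were lower (28.0%) and 16 higher (7.48%), with a median of -0.42. Of 7028 autosomal genes 1141 were lower (16.2%) and 391 higher (5.56%), with a median of -0.19. The part of sex in the differences of Pim2, Slc7a3, Cited1 and Chst7 was not tested.

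Markers of other cell types that the dissected fragment could hold were mostly near the floor as list means, which average in undetected members. Some single members were not, among them Foxj1, Gata2, Etv2 and Plac1. Of 12 markers of visceral and definitive endoderm 6 were undetected in both groups, among them Ttr, Afp and Apob, no mesoderm cell had more than 2, and their summed level, as the mean over the list, ranged from 6.16 to 6.48 in mesoderm cells and from 6.18 to 6.28 in epiblast cells. Of 9 neural plate markers no mesoderm cell had more than 2, and the level was 6.17 to 6.39 in mesoderm cells and 6.23 to 6.59 in epiblast cells, with Pax6 and Zic1 undetected. Of 6 node and notochord markers, Shh, Foxa2, Chrd and Nog were undetected in both groups. The list's level of 6.74 to 7.06 in mesoderm cells and 7.18 to 7.54 in epiblast cells came from Foxj1 and Nodal. Every mesoderm cell had 1 or 2 detected members and every epiblast cell 2.

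Blood and endothelial markers showed 2 members higher and 0 lower of 17 (11.8% higher, against 5.64% of the broadly detected genes). In both groups 11 were undetected, including Gata1, Tal1, Cdh5, Pecam1 and the embryonic globins. The level was 6.27 to 6.89 in mesoderm cells and 6.13 to 6.38 in epiblast cells. The higher members were Gata2, a zinc-finger factor of blood progenitors (8.50 ± 1.50 in mesoderm cells and 6.36 ± 0.64 in epiblast cells), and Etv2, the factor that specifies blood and vessels, detected in 8 of 10 mesoderm cells and 3 of 8 epiblast cells. Kdr, the receptor of the earliest vascular progenitors, was detected in 2 mesoderm cells. Of 7 trophoblast markers the defining Elf5 and Tpbpa were undetected, and the level was 6.30 to 7.17 in mesoderm cells and 6.41 to 6.91 in epiblast cells. Plac1, an X-linked gene of the placenta, was detected in 5 of 10 mesoderm cells and 0 of 8 epiblast cells.

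Cells of the mesoderm group differed among themselves. Among list members detected in 3 to 7 of the 10 cells, the 5 with the largest SD were Krt18 (replicates 2, 3, 4, 5, 7 and 10), Plac1 (1, 2, 4, 5 and 10), Mest (1, 3, 4, 7, 8 and 10), Egr1 (1, 3, 7, 8 and 9) and Tdgf1 (7, 8 and 9). Plac1 reached 11.41 in replicate 4. Dlk1, which this rule did not take, reached 9.92 in replicate 5. Dlk1 was detected in replicates 1, 4, 5, 6 and 10, so 4 of the 5 cells with Plac1 also had Dlk1, and both genes were undetected in replicates 3, 7, 8 and 9. The pair was not chosen by the rule, and whether the genes go together was not tested.

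Some cells are named here after their values were seen. Replicates 7 and 9 combined mesoderm transcripts with several that were higher in epiblast cells. Such transcripts were not confined to them: Pim2 was also detected in replicates 6 and 10, and Tdgf1 in replicate 8. Replicate 7 had Tdgf1 at 11.26, Eomes at 8.88 and Nanog at 7.85, and Bmp4, Hoxd9, Cdx1, Msx1, Notch1 and Tbx6 were not detected in it, while its Mesp1 signal of 11.74 was within the range of the group. Replicate 9 had Nanog at 9.19, Pim2 at 9.27, Nodal at 7.97 and Tdgf1 at 8.95, and no Msgn1. Replicate 3 had Hand1 at 6.64 and no Gata4 or Foxf1, with Msgn1 at 9.89 and Cdx2 at 10.92. Replicates 1, 2, 5, 6, 8 and 10 held Hand1, Bmp4, Msgn1 and Dll1 together, so these transcripts were found in the same cells.

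**Figure D4:**
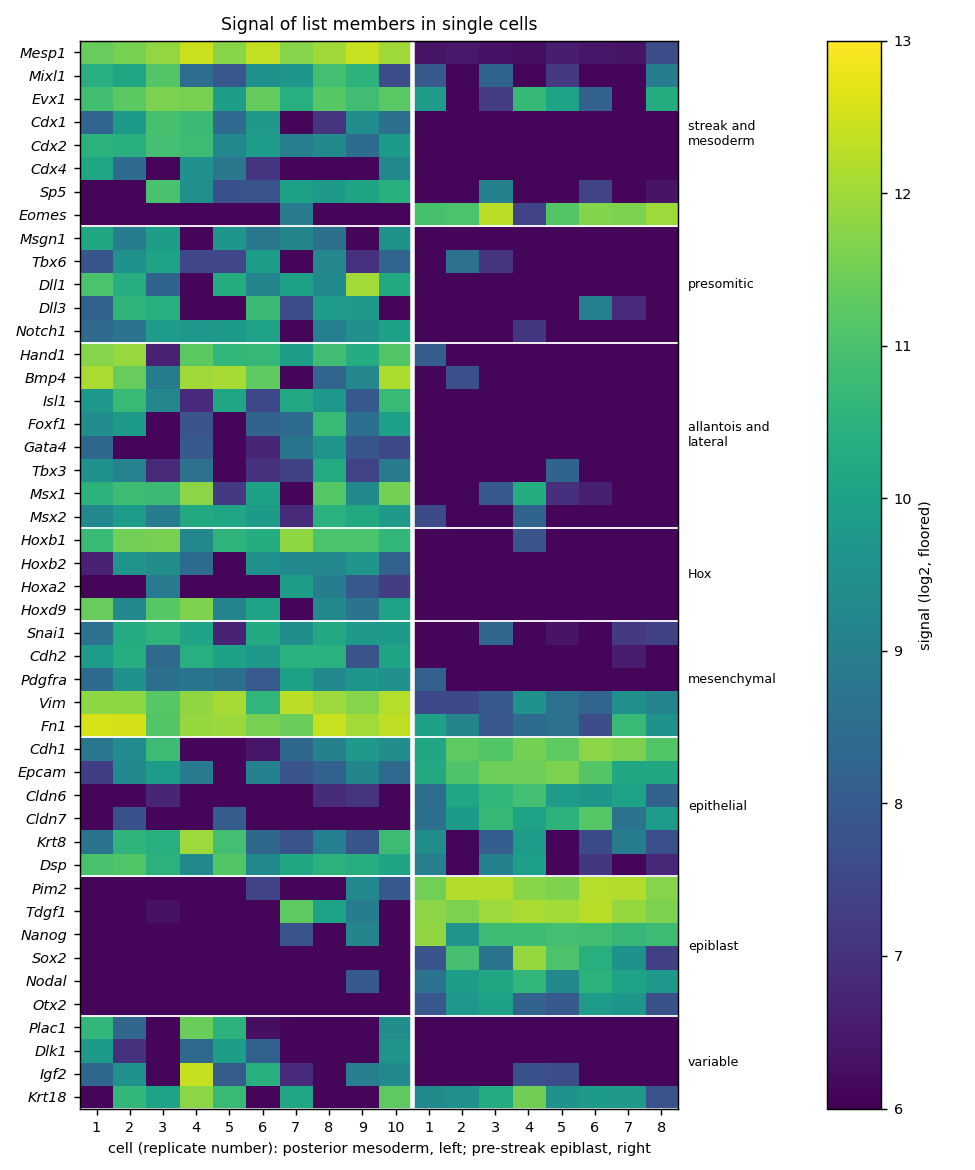
Floored log2 signal (colour) of list members (rows, grouped by role) in each posterior mesoderm cell (left, replicates 1 to 10) and each pre-streak epiblast cell (right, replicates 1 to 8). Mesp1 is high in all 10 mesoderm cells, while Bmp4, Hoxd9 and Msx1 are at or near the floor in replicate 7 and Hand1 in replicate 3.

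The levels could be set beside those of other groups of the study whose arrays had the usual hybridisation controls. The closest in stage were 4 Blimp1+ Hoxb1+ cells of the E/MB stage, wild type cells with Blimp1, Oct4 and Hoxb1 transcripts, and 12 Blimp1 knockout cells of the same stage, chosen by the transcript of the null allele and Oct4. The labels conflict on the stage of 4 further Blimp1+ Hoxb1+ cells, whose titles name E/MB and whose descriptions name the early head fold stage (EHF). The descriptions were followed, and these cells were kept as a separate group. Mesp1 averaged 11.95 ± 0.37 in posterior mesoderm, 11.45 ± 0.59 in the Blimp1+ Hoxb1+ cells, 10.60 ± 1.63 in the knockout cells and 6.56 ± 0.45 in epiblast cells. Hand1 averaged 10.50 ± 1.49 in posterior mesoderm, 10.46 ± 1.03 in the Blimp1+ Hoxb1+ cells and 10.48 ± 1.36 in the knockout cells. Bmp4 averaged 10.36 ± 2.08 in posterior mesoderm, 11.57 ± 0.63 in the Blimp1+ Hoxb1+ cells and 11.30 ± 0.68 in the knockout cells. Sox2 was detected in 0 of 4 Blimp1+ Hoxb1+ cells and 1 of 12 knockout cells, Otx2 in 0 of 4 Blimp1+ Hoxb1+ cells and 0 of 12 knockout cells, and Eomes in 1 of 4 Blimp1+ Hoxb1+ cells and 0 of 12 knockout cells.

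Other genes were lower in those groups than in posterior mesoderm. Msgn1 was detected in 8 of 10 posterior mesoderm cells, 1 of 4 Blimp1+ Hoxb1+ cells and 3 of 12 knockout cells. Dll1 was detected in 9 of 10 posterior mesoderm cells, 1 of 4 Blimp1+ Hoxb1+ cells and 6 of 12 knockout cells, and Car3 in 9 of 10 posterior mesoderm cells, 0 of 4 Blimp1+ Hoxb1+ cells and 6 of 12 knockout cells. Fgf3 averaged 10.003 ± 0.81 in posterior mesoderm, 8.53 ± 2.05 in the Blimp1+ Hoxb1+ cells and 8.84 ± 2.02 in the knockout cells. For these genes the difference between posterior mesoderm and the other mesodermal groups runs along the set of arrays as well, and these cannot be told apart.

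Streak-stage cells were intermediate for some genes and not for others. In 7 E/MS precursors, Blimp1+ cells of the early to mid streak stage, Mesp1 averaged 11.53 ± 1.95 and Eomes 11.18 ± 2.19, so that both were high, and Tdgf1 averaged 12.24 ± 0.22. In 17 LS/0B precursors of the late streak to no bud stage Mesp1 averaged 10.60 ± 2.06, Eomes 8.75 ± 2.56 and Cdx2 9.002 ± 1.80. Hoxd9 was detected in 0 of 7 E/MS and 2 of 17 LS/0B precursors, and Msgn1 in 0 of 7 E/MS and 0 of 17 LS/0B precursors. In 8 PGCs of the E/MB stage, Sox2 averaged 11.15 ± 0.75 and Nanog 9.74 ± 0.87, Cdh1 10.89 ± 0.44 and Cldn7 9.93 ± 0.90, and Snai1 was detected in 0 of 8. Cdx2 averaged 10.14 ± 0.62 in these PGCs and Phlda2 12.80 ± 0.35, while Hoxb1, Fgf3, Car3 and Pdgfra were detected in 0 of 8.

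As the mean signal over a list, the mesoderm regulators stood at 8.15 ± 0.24 in posterior mesoderm, 7.62 ± 0.22 in Blimp1+ Hoxb1+ E/MB cells, 7.61 ± 0.54 in E/MB knockout cells, 8.10 ± 0.74 in E/MS precursors and 6.92 ± 0.28 in epiblast cells. The primed epiblast list stood at 6.81 ± 0.32 in posterior mesoderm, 7.10 ± 0.21 in Blimp1+ Hoxb1+ E/MB cells, 7.19 ± 0.20 in E/MB knockout cells, 7.87 ± 0.44 in E/MS precursors and 9.46 ± 0.57 in epiblast cells. The mesenchymal list stood at 8.70 ± 0.36 in posterior mesoderm, 8.75 ± 0.87 in Blimp1+ Hoxb1+ E/MB cells, 8.70 ± 0.44 in E/MB knockout cells, 8.25 ± 0.91 in E/MS precursors and 6.91 ± 0.16 in epiblast cells. For the primed epiblast list the epiblast mean was the highest and the posterior mesoderm mean lay among those of the later groups.

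**Figure D5:**
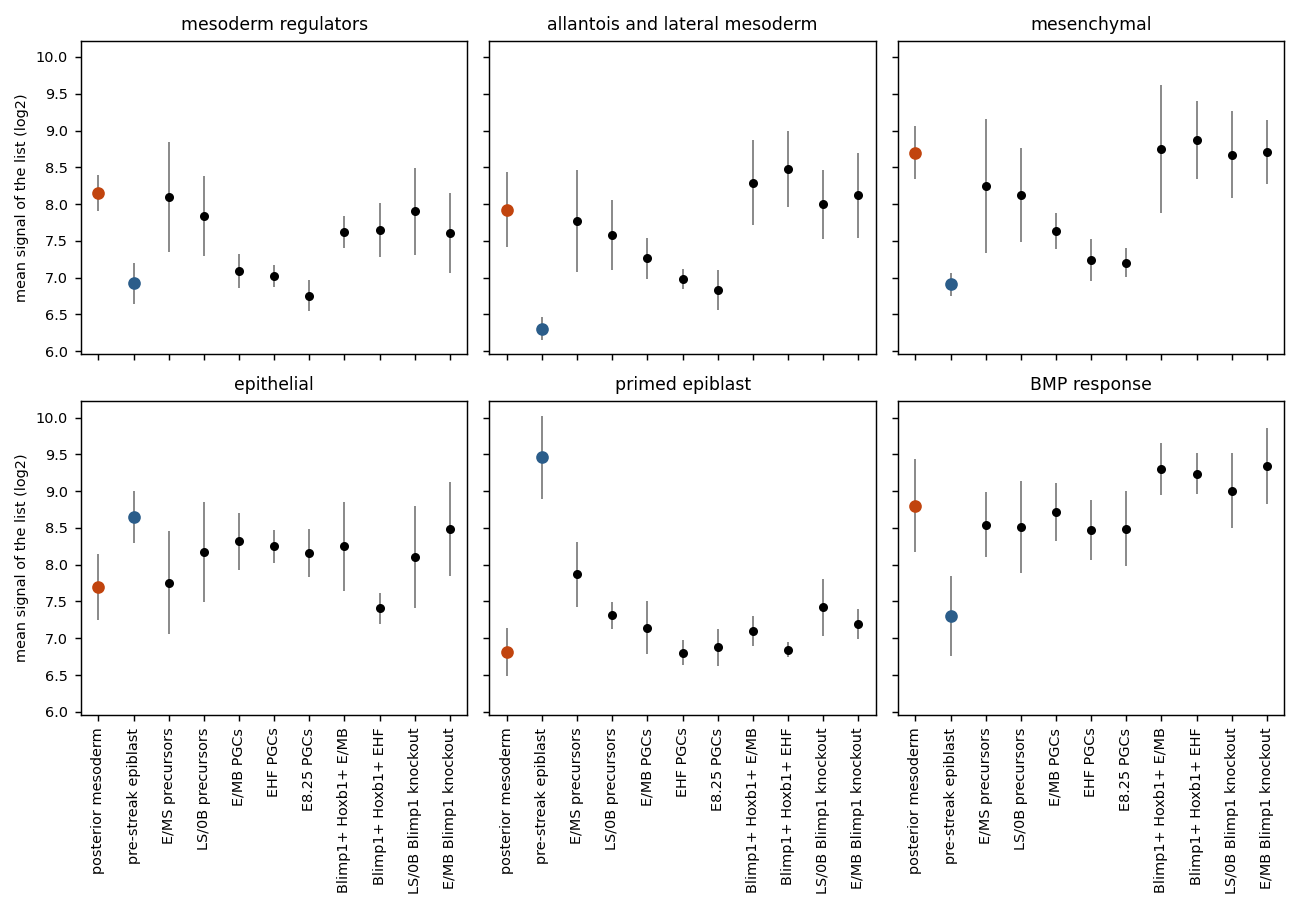
Mean log2 signal over the genes of 6 lists in each of the 11 groups of the study (points, means over cells; bars, SD over cells); orange, posterior mesoderm, blue, pre-streak epiblast. The primed epiblast list stands at 6.81 in posterior mesoderm and 9.46 in epiblast cells. Blimp1+ Hoxb1+ cells are split by the stage in their descriptions, although all their titles name E/MB.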

How the data were processed

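Each cell's deposited file column gives 1 linear intensity for every probe set, and MAS5 is named in the submitters' processing notes as the authors' software; its version and scaling target, and how low values were handled, are not stated in the sources used here. Amplified cDNA of 1 cell was hybridised to each array, per the labels' protocols, and a transcript lost in amplification reads as a low value. On the 18 arrays 16.2% of intensities equalled 1, the lowest value, 0 values were missing and 0 pairs of arrays were identical.

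Of 45101 probe sets, 64 were controls; the platform annotation paired 34945 with 1 symbol and 932 with several, leaving 9160 unnamed here. Each of 18193 genes was represented by the 1-symbol probe set with the highest mean over all 106 cells. Background was read from 126 probe sets for hair keratin-associated proteins and for olfactory, vomeronasal or taste receptors. Intensities were raised to a floor of 70.2 (6.13 in log2), which is their 90th percentile in the median cell. A gene was detected in a cell above their 95th percentile in that cell. Differences are group means of log2 signal, mesoderm minus epiblast, and a call is a difference of at least 1. Where no cell of the dimmer group detected a gene, the fold is a bound. It sets the brighter group's mean of log2 signal, without the floor, against, per array, the higher of the lowest detected signal and the gene's own signal. Bounds under 1-fold were left out.

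The labels name 0 embryos or litters, so cells are not replicates and no test was made; precision is limited by how many arrays each group has. Named genes were the 15 largest differences each way of genes found in 75% or more of the cells where they were higher, the 459 measured members of 33 lists (492 symbols, 16 of them in several lists), the genes used to choose cells with Ifitm3, and the array controls. For spread between cells, the rule took the 5 list members with the largest SD among those detected in 3 to 7 mesoderm cells. The cells and lists were chosen with earlier results of these data known. Promoter windows of 250 bases came from RefSeq's GRCm38.p6 table. Calculations used Python 3.11.15 with numpy 2.4.6 and pandas 2.3.3. The calling step was run on simulated data with normal noise. The simulation held no lost transcripts and no effect of array set or sex, so it says nothing about those limits of the calls.

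Alternatives were no floor, a floor at the 99th percentile, the 99th percentile as detection limit, the mean over probe sets, centring on broadly detected genes, scaling to the lys controls, quantile normalisation, a filter on detection, leaving out each cell and, added after the data were seen, leaving out epiblast replicates 3 to 6 together.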

Additional observations from a re-analysis of the deposited data

Results flagged for a closer look

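Of 104 groups of values examined (each list's mean signal and each leading gene within 1 group of cells), 12 had 1 cell set apart from the others by a gap that is large against the group's range, at a size that about 1 in 20 groups of independent, normally distributed values would pass by chance. The groups here share cells and genes and hold values at the floor, so their number is not read against that rate. In posterior mesoderm, replicate 3 was high for the mesoderm regulators (8.77, the next cell at 8.20) and low for Hand1 (6.64, next 9.93) and Car3 (6.77, next 8.77). Mesoderm replicate 9 was high for the primed epiblast genes (7.59, next 6.99) and for the node and notochord genes (7.06, next 6.80), a list in which its signal was from Nodal and Foxj1. Mesoderm replicate 7 was low for the BMP response genes (7.33, next 8.47), and it also had no detected Bmp4. Mesoderm replicate 2 was high for the cell cycle inhibitors (8.17, next 7.24), and replicate 8 was at the floor for Rhob (6.13, next 9.46). In pre-streak epiblast, replicate 4 was low for Eomes (7.41, next 10.95) and high for the neural plate genes (6.59, next 6.40). Epiblast replicate 6 was high for the Notch pathway genes (7.60, next 7.24), and replicate 8 was low for Socs2 (8.40, next 10.28). What sets these cells apart was not tested.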

How the results depend on the processing

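The comparison is 1 sample against 1, with sex and array set confounded with group and no calls tested, and genes near the background limit depend on the floor. With no floor 1665 genes were higher and 3829 lower by at least 1 unit, with a floor at the 99th percentile of background 135 and 476, and with the mean over probe sets 333 and 666; after centring 829 and after lys scaling 872 were higher. Leaving out 1 cell gave 503 to 561 higher and 1332 to 1616 lower. List medians with no floor were 3.52 for mesoderm regulators, 0.21 for Hox genes, 2.08 for allantois and lateral mesoderm, 3.10 for mesenchymal, -2.85 for epithelial, -6.52 for primed epiblast, 2.80 for BMP response, -0.66 for cell cycle inhibitors, -0.89 for Bcl2 family, -1.50 for cholesterol synthesis, -0.44 for trophoblast and -0.23 for neural plate genes. With the 99th percentile floor they were 0.55 for mesoderm regulators, 0.22 for allantois and lateral mesoderm, 0.65 for mesenchymal, -1.45 for primed epiblast, 0 for Nodal pathway and DNA methylation, -0.024 for Bcl2 family, 0.12 for imprinted and -0.34 for glycolysis genes. With the mean over probe sets they were 0.48 for allantois and lateral mesoderm, -1.77 for primed epiblast and -0.16 for Bcl2 family genes. Glycolysis was at -0.43 after centring and -0.40 after lys scaling, which also gave 2.00 for mesoderm regulators and 0.15 for Hox genes. The other list medians under these settings, and all of them under quantile normalisation and with 1 cell left out, moved by less than 1 SD. Of 159 genes followed individually, 2 changed sign, both with the mean over probe sets: Spred2 (-0.020) and Suz12 (0.12). Of the same genes, 88 moved by more than the SD between cells under at least 1 setting: 73 with no floor, 47 with the 99th percentile floor and 20 with the mean over probe sets, which also took 41 of 154 called genes under 1 unit. Without epiblast replicates 3 to 6, left out together after the data were seen, 16 called genes were under 1 unit and the Bcl2 family median was -0.17. With the 99th percentile as detection limit, 7101 ± 929 probe sets were detected in mesoderm cells and 8731 ± 1288 in epiblast cells (SD, n = 10 and 8). The causes of these shifts were not tested. The alternative of using only cells with Xist was not run, since it leaves no mesoderm cell. No paired analysis was possible because the replicate numbers name cells without a shared embryo.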
